A study of Mus musculus and Rattus norvegicus with 30 samples.

Results

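The unfolded protein and ATF4 stress response was followed in the dorsal root ganglion (DRG), the cluster of sensory neuron cell bodies beside the spinal cord, through 34 genes. These genes were chosen by symbol as known sensors, transcription factors and targets of the response, and all 34 symbols were listed among the 54315 features of the mouse count table and the 39281 features of the rat count table. The 17 genes of the ATF4 arm were the transcription factors Atf4, Atf5 and Ddit3, the amino acid and folate enzymes Asns, Psat1, Phgdh, Shmt2, Mthfd2 and Aldh1l2, the amino acid transporters Slc7a11, Slc7a5 and Slc3a2, and the stress regulators Chac1, Trib3, Sesn2, Ddit4 and Nupr1. The 17 genes of the endoplasmic reticulum (ER) arm were the sensors Atf6, Eif2ak3 and Ern1, the transcription factor Xbp1, the chaperones and foldases Hspa5, Hsp90b1, Dnajb9, Sdf2l1, Pdia4, Pdia6, Calr, Canx, Creld2 and Manf, and the ER-associated degradation genes Herpud1, Edem1 and Sel1l.

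RNA of whole ganglia was sequenced in models of nerve injury, in mouse after removal of ribosomal RNA and in rat as the polyadenylated fraction. In mouse, L3 and L4 DRG of single animals were taken 28 days after spared nerve injury (SNI), which cuts the common peroneal and sural branches of the sciatic nerve and leaves the tibial branch, or after sham surgery, in which the nerves are only exposed. The mice were of the inbred strains BALB/c and B10.D2 and were obtained at 4 to 8 weeks of age. The groups with count columns were BALB/c sham (3 males, 3 females), BALB/c SNI (2 males, 2 females), B10.D2 sham (3 males, 2 females) and B10.D2 SNI (2 males, 3 females). In rat, L5 DRG of male Wistar rats were taken 21 days after spinal nerve transection (SNT), in which the left L5 spinal nerve is tied and cut, or after sham surgery, with 4 samples of 3 pooled animals in each group. SNI leaves part of the neurons in L3 and L4 with intact axons, whereas SNT cuts the spinal nerve of the sampled ganglion, so the values of the 2 species are set side by side and their difference was not tested.

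The unfolded protein response is the programme by which a cell adjusts to misfolded protein in the ER. Of its sensors in the ER membrane, ATF6 is cut to release a transcription factor, IRE1 (gene Ern1) splices the Xbp1 mRNA, and PERK (gene Eif2ak3) phosphorylates the initiation factor eIF2-alpha, which lowers protein synthesis and favours translation of ATF4. ATF4 is also induced through eIF2-alpha by amino acid shortage and other stresses, and it drives amino acid synthesis and transport as well as the stress regulators Ddit3 (CHOP) and Trib3. Because ATF4 is controlled largely in translation and ATF6 by cleavage, mRNA counts report their targets more directly than the activity of either factor.

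Library totals were 29989963 to 41881331 counts in mouse and 11954612 to 17887909 counts in rat. Values are CPM, read counts scaled to the library total with TMM factors, and 3 counts, taken as the limit of detection, correspond to 0.0716 to 0.1 CPM in mouse and 0.168 to 0.251 CPM in rat. A gene was called changed at an adjusted p under 0.05 in edgeR's quasi-likelihood F test, with Benjamini-Hochberg adjustment over all features tested, 24685 in mouse and 13690 in rat. All 6 markers of axon injury measured in mouse (Atf3, Sprr1a, Gal, Npy, Sox11 and Gap43) rose in both strains after SNI. In rat, 9 members were listed at 0 in all 8 libraries (Atf6, Slc7a5, Ddit4, Xbp1, Herpud1, Sdf2l1, Calr, Canx and Ern1), as were Atf3, Gap43 and 3 sensory neuron markers (Rbfox3, Tubb3 and Uchl1), so a 0 in the rat table is not a measure of expression. Of the other 25 members, Nupr1 did not pass the filter on low counts and 24 were tested. On the first principal component of the rat libraries (68.1% of the variance), scores were -61.5 to -47.8 for sham libraries 1 to 3 and 41.7 to 65.3 for SNT libraries 2 to 4, and 2 libraries had scores in the gap, sham library 4 (-10.2) and SNT library 1 (0.789). The summed CPM of the 4 injury markers counted in rat was 343 in sham library 4 against 96.0 to 110 in the other sham libraries and 470 to 733 after SNT. Members called in rat with all libraries or without these 2 are given both ways. The 2 libraries were picked for lying between the groups, so leaving them out widens the group differences by construction and is no independent support for a change.

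Some promoters in each arm hold short elements through which the response is known to act, and these are shown as a feature of sequence. Members were chosen as known parts of the response, so a higher share of matches than in all promoters is no independent result. The window searched ran from 250 bases before to 50 bases after the transcription start of RefSeq on GRCm38.p6, on both strands, and 30 of the 34 members had an entry (none for Aldh1l2, Slc7a5, Atf6 and Manf). The ER stress element, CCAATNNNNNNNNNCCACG, is bound by NF-Y with ATF6 or XBP1. It was present in 39 of 32851 promoters (0.119%), which is 37 of 27025 genes (0.137%), as some genes have several promoters. Counted by gene, it was in 6 of the 15 ER arm genes with an entry and in 0 of the 15 ATF4 arm genes. In the lines that follow, read 5′ to 3′ on the strand of the gene, capitals mark the fixed letters of the element, and CGTGG with ATTGG is the element in reverse.
Hspa5, chr2:34772020-34772048, plus strand: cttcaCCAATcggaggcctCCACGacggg
Pdia6, chr12:17266486-17266514, plus strand: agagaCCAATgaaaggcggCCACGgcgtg
Canx, chr11:50325795-50325823, minus strand: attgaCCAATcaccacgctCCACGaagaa
Hsp90b1, chr10:86705633-86705661, minus strand: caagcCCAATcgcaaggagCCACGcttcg
Hsp90b1, chr10:86705528-86705556, minus strand: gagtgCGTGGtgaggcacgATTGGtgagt
Calr, chr8:84847070-84847098, minus strand: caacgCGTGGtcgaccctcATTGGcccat
Creld2, chr15:88819515-88819543, plus strand: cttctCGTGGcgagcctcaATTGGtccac

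The shorter ER stress element II is ATTGG, any base, then CCACG. It shares the letters of the first element with another spacing and order, and it was found in 12 of 32851 promoters (0.0365%), 1 of them that of Herpud1. The C/EBP-ATF response element (CARE), TGATGNAA, is bound by ATF4 with a C/EBP partner. It was present in 1304 of 32851 promoters (3.97%), which is 1219 of 27025 genes (4.51%). Counted by gene, it was in 5 of the 15 ATF4 arm genes with an entry (Chac1, Trib3, Slc7a11, Asns and Nupr1) and in 1 of the 15 ER arm genes, Herpud1. Another element, TGACGTGG, which XBP1 and ATF6 bind and which overlaps CCACG read in reverse, was in 222 promoters (0.676%) and in none of the 30 member promoters. In the lines for CARE, TTNCATCA is the element in reverse, and the match of Nupr1 (chr7:126625568-126625585) is not printed. A match is a run of letters in this window and was not tested as a binding site, and an element outside the window was not searched for.
Herpud1, element II, chr8:94386372-94386392, plus strand: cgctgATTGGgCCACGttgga
Herpud1, CARE, chr8:94386312-94386329, plus strand: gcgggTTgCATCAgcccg
Chac1, CARE, chr2:119351044-119351061, plus strand: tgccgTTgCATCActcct
Slc7a11, CARE, chr3:50443667-50443684, minus strand: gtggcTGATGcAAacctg
Slc7a11, CARE, chr3:50443648-50443665, minus strand: agaatTTgCATCAtcatg
Asns, CARE, chr6:7693220-7693237, minus strand: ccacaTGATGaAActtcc
Trib3, CARE, chr2:152344034-152344051, minus strand: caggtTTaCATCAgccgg

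The unconventional splice of Xbp1 was listed among the deposited mouse splice junctions. IRE1 removes a short intron from the Xbp1 mRNA, which shifts the reading frame and yields the active factor. The junction list held a gap of 26 bases at chr11:5524278-5524303 on the plus strand of GRCm38, within coding exon 4 of Xbp1 and outside the annotated introns. The line labelled removed intron prints, in capitals, the bases of the gap at the position listed. A gap between repeated bases can be placed at more than 1 position, and the exact cut sites of IRE1 were not determined.
Xbp1, removed intron: GCAGCACTCAGACTATGTGCACCTCT
The list of 247419 junctions pooled all mouse libraries and gave no read counts, and 102 of its junctions spanned 26 bases. It held 7 junctions in Xbp1, of which 4 were annotated. The junction was thus listed for mouse DRG as a whole, and the share of spliced mRNA in sham and SNI ganglia was not measured.

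Per kilobase of exon, the chaperones and lectins of the ER were the most abundant members in mouse DRG. The length used was that of all annotated exons of a gene, each base counted once, and not that of a single transcript. Averaged over the 4 groups, the level was 123 CPM per kilobase for Canx, a membrane lectin chaperone, 112 for its soluble partner Calr, 99.3 for Hsp90b1, the ER HSP90, and 93.4 for Hspa5, the ER HSP70 also called BiP. Among the ATF4 arm, Asns, which makes asparagine, had 57.02 CPM per kilobase and Atf4 had 53.4. The lowest members were Slc7a11, the cystine transporter, at 1.27, the pseudokinase Trib3 at 1.35, Sesn2 at 1.57 and Aldh1l2 at 1.60 CPM per kilobase. The place of Slc7a11 depends on its 13922 bases of exon. In CPM its group means (13.8 to 21.4) were above those of Trib3 (2.57 to 3.39) and Sesn2 (4.54 to 6.51). Group means differed little within a gene, with the lowest and highest group at 89.8 and 96.0 CPM per kilobase for Hspa5 and at 47.4 and 59.1 for Atf4. As a ratio, the widest gap was that of Chac1, a glutathione-degrading enzyme, from 1.98 to 4.49.

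Injury changed few members in mouse DRG. In BALB/c, 2 of 34 members were called (5.88%, beside 9.69% of all features tested), Sesn2 rising and Aldh1l2 falling, and in B10.D2 1 member was called (2.94%, beside 4.58% of all features), Sesn2 rising. The median log2 fold change over the 34 members was 0.07 in BALB/c, beside 0.0033 over all features, and 0.00077 in B10.D2, beside 0.0075 over all features. Averaged over both strains, 4 of 34 members were called (11.8%, beside 16.5% of all features), namely Sesn2, Ern1 and Psat1 rising and Aldh1l2 falling. None of these shares exceeded that of all features, and the called changes were at most 1.32-fold. Called genes included, edgeR's test gave 6 of the 17 ATF4 arm genes an unadjusted p under 0.05 in BALB/c and 2 in B10.D2. In bulk ganglia, fewer cells of a type and less RNA per cell cannot be told apart.

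**Figure D1:**
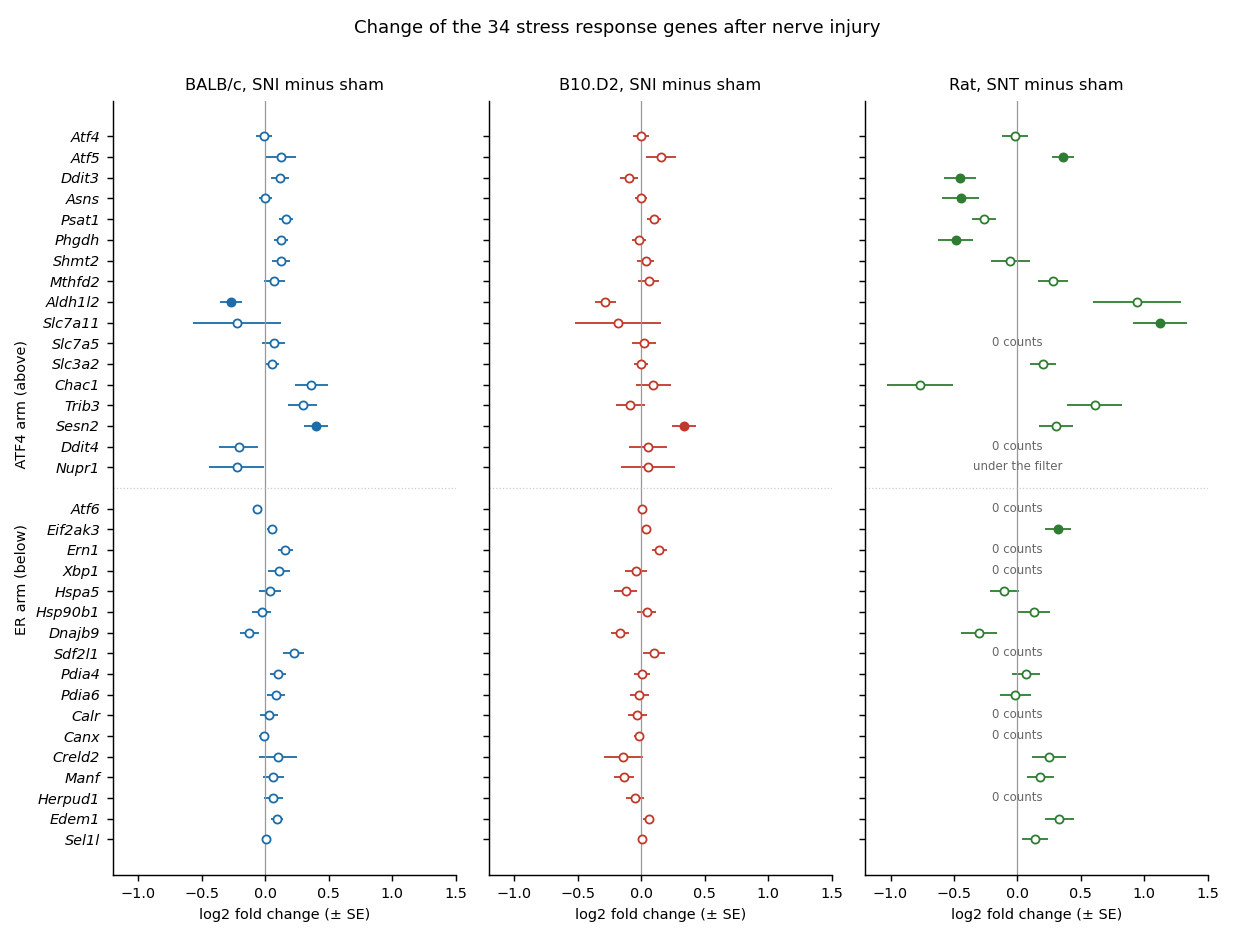
Log2 fold change (points, with SE as bars) of each of the 34 genes after injury in BALB/c, B10.D2 and rat, with ATF4 arm genes above the dotted line and ER arm genes below it. Filled points are called at an adjusted p under 0.05: 2 in BALB/c, 1 in B10.D2 and 6 in rat, where 9 genes are listed at 0 counts and Nupr1 is under the filter.

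Among the stress regulators, Sesn2, which encodes a leucine sensor that restrains mTORC1, rose in both strains. In BALB/c sham libraries its lowest, median and highest levels were 4.51, 4.996 and 5.28 CPM, and the BALB/c SNI libraries had 5.84, 6.55, 6.80 and 6.84 CPM. All 4 SNI libraries lay above every sham library. The log2 fold change was 0.40 (SE 0.0947, adjusted p = 0.00853), and the call held in each of the 20 fits that left out 1 library. In B10.D2 the sham libraries had 4.13, 4.18, 4.73, 4.81 and 4.87 CPM and the SNI libraries 4.82, 5.35, 5.48, 6.53 and 6.76 CPM. Only the lowest of the 5 SNI libraries overlapped the sham group. The log2 fold change was 0.34 (SE 0.0948, adjusted p = 0.0444), a call near the threshold that held in 3 of the 20 fits without 1 library, with adjusted p from 0.0121 to 0.188. Averaged over strains the log2 fold change was 0.37 (SE 0.0671, adjusted p = 0.000524) and was called in all 20 such fits.

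Among the metabolic enzymes, Aldh1l2, the mitochondrial enzyme that oxidises 10-formyltetrahydrofolate, moved the other way. In BALB/c it ranged from 13.3 to 17.4 CPM in sham libraries (median 14.0) and was 11.63, 11.82, 11.99 and 13.23 CPM in SNI libraries. No SNI library reached the sham range. It fell by 0.27 on the log2 scale (SE 0.0832, adjusted p = 0.0447), a call that held in 8 of the 20 fits without 1 library. In B10.D2 the sham libraries had 9.85, 11.03, 11.49, 12.57 and 13.56 CPM and the SNI libraries 8.37, 9.24, 9.55, 9.94 and 10.1 CPM. The groups overlapped by 2 SNI libraries, and the log2 fold change of -0.28 (SE 0.0832) had an adjusted p of 0.0563. Averaged over strains it fell by 0.28 (SE 0.0589, adjusted p = 0.00231). Psat1, the aminotransferase of serine synthesis, ranged from 49.07 to 58.72 CPM in BALB/c sham libraries (median 53.93) and was 57.16, 60.91, 61.68 and 62.32 CPM in BALB/c SNI libraries. In B10.D2 it was 43.93, 44.8, 45.96, 49.35 and 50.26 CPM in sham and 46.17, 47.13, 51.54, 52.22 and 53.12 CPM in SNI libraries. The groups overlapped in each strain. Psat1 rose over both strains by 0.13 on the log2 scale (SE 0.0399, adjusted p = 0.0252), called in 14 of 20 fits without 1 library, and was not called in either strain alone. Phgdh, the first enzyme of serine synthesis, Shmt2, Mthfd2 and Asns had log2 fold changes of at most 0.08 in size averaged over strains, with adjusted p from 0.294 to 0.997.

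The transcription factors of the ATF4 arm did not pass the test after SNI. Atf4 mRNA ranged from 120 to 163 CPM in BALB/c sham libraries (median 138) and was 132, 136, 142 and 143 CPM in BALB/c SNI libraries. In B10.D2 it was 100.8, 111.6, 116.9, 117.4 and 121.5 CPM in sham and 107.9, 109.7, 109.8, 110.1 and 121 CPM in SNI libraries. The groups overlapped in both strains, and the log2 fold change averaged over strains was -0.01 (SE 0.0429, adjusted p = 0.957). Atf5 had 0.14 (SE 0.0836, adjusted p = 0.287) and Ddit3 0.01 (SE 0.0487, adjusted p = 0.924). Slc7a11 was the most scattered member, with SEs of 0.349 and 0.339 on the log2 scale in the 2 strains, and was not called in either (-0.22 and -0.18).

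On the ER arm, few genes were called after SNI. For each strain edgeR called 0 of 17 ER arm genes, with 3 (BALB/c) and 2 (B10.D2) at an unadjusted p under 0.05, and DESeq2 called 0 in each. Averaged over strains, 1 was called, the sensor gene Ern1. It ranged from 22.6 to 27.5 CPM in BALB/c sham libraries (median 25.2) and was 26.9, 27.4, 28.3 and 29.5 CPM in BALB/c SNI libraries. In B10.D2 it was 22.0, 22.7, 23.1, 23.4 and 25.5 CPM in sham and 23.0, 24.4, 26.7, 27.5 and 28.6 CPM in SNI libraries. The ranges overlapped in both strains. The log2 fold change averaged over strains was 0.15 (SE 0.0424, adjusted p = 0.0175), called in all 20 fits without 1 library. The sensors Eif2ak3 (0.05) and Atf6 (-0.03) and the factor Xbp1 (0.04) did not pass.

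Of the 10 chaperones and foldases, edgeR called 0 averaged over strains, with 2 at an unadjusted p under 0.05, and DESeq2 called 1, Dnajb9. Their log2 fold changes ran from -0.15 for Dnajb9, an ER co-chaperone, to 0.16 for Sdf2l1, a partner of BiP. Hspa5, the reference target of the unfolded protein response, ranged from 357 to 433 CPM in BALB/c sham libraries (median 386) and was 369, 386, 408 and 446 CPM after SNI. In B10.D2 it was 361, 383, 398, 418 and 469 CPM in sham and 321.4, 322.6, 385.7, 404.2 and 465.8 CPM in SNI libraries. The groups overlapped throughout, with a log2 fold change of -0.04 (SE 0.0621, adjusted p = 0.699). The SE of this averaged change was 0.0621 or less on the log2 scale for 9 of the 10, with Creld2 at 0.107.

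Marker levels of other cells moved with injury beside these values. The summed CPM of 4 plasma cell markers (Jchain, Mzb1, Sdc1 and Tnfrsf17), genes of cells rich in ER chaperones, was 25.9 to 38.4 in BALB/c sham and 63.7 to 72.4 in BALB/c SNI libraries, and 27.4 to 56.1 and 44.5 to 58.2 in the B10.D2 groups. Of these 4, edgeR called Sdc1 alone (log2 fold change 1.07 for BALB/c, 0.67 for B10.D2). In B10.D2 the other 2 tested had estimates below 0, so the sums do not show that the list rose as a whole. The sum of 6 macrophage markers was 71.6 to 79.8 CPM in B10.D2 sham and 81.8 to 133 in B10.D2 SNI libraries. The BALB/c groups overlapped (35.9 to 88.1 and 70.7 to 110). The calls did not follow these ranges. For BALB/c, edgeR called 3 of the 6 higher (log2 fold change 0.97 for Cx3cr1, 0.62 for Cd68 and 0.47 for Csf1r). For B10.D2 it called 0 of the 6. Each strain had 5 markers at an unadjusted p under 0.05 in that test and all 6 estimates above 0. DESeq2 called 4 for BALB/c, 1 for B10.D2. All markers of both lists were counted in mouse, and their part in the member changes was not tested.

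Whether injury acted differently in the strains was tested by the interaction term. For the 34 members, edgeR called 0 (beside 0.0243% of all features), with 2 at an unadjusted p under 0.05, and DESeq2 called 0. Those 2 were Trib3 and Ddit3. Trib3 was 2.24 to 3.06 CPM in BALB/c sham (median 2.80) and 2.85, 3.15, 3.59 and 3.99 CPM in BALB/c SNI libraries, against 2.58, 2.62, 2.63, 2.97 and 2.99 CPM in B10.D2 sham and 2.12, 2.49, 2.60, 2.81 and 2.85 CPM in B10.D2 SNI libraries. The BALB/c SNI libraries were high and the B10.D2 SNI libraries low, with overlap in each strain. The injury change of Trib3 in B10.D2 minus that in BALB/c was -0.38 (SE 0.162, unadjusted p = 0.0282, adjusted p = 1). For Ddit3 the same difference was -0.21 (SE 0.0976, unadjusted p = 0.0428, adjusted p = 1). Of the 34 interaction estimates 27 were below 0, with a median of -0.05 beside 0.00068 over all features. These estimates come from the same 20 libraries, and some members vary together. They are thus not 34 independent results, and the count was not tested.

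More members were called between the strains than between the surgeries, and most of them were ATF4 arm genes. All features also had more calls between the strains in sham (21.6%) than after SNI (9.69% in BALB/c and 4.58% in B10.D2). In sham ganglia, 9 of 34 members were called between strains (26.5%), a share near the 21.6% of all features. All 9 were lower in B10.D2, a direction called for 10% of all features. Of the ATF4 arm 7 of 17 were lower (Chac1, Atf4, Aldh1l2, Mthfd2, Psat1, Slc7a5 and Slc3a2) and of the ER arm 2 of 17 (Edem1 and Atf6). The median log2 difference was -0.16 over the ATF4 arm and -0.0092 over the ER arm, beside -0.0063 over all features. In SNI ganglia, a comparison that shares no library with the first and was added after seeing the data, 11 of 34 were called (32.4%, beside 20.9% of all features) and all 11 were lower in B10.D2 (9.99% of all features). These were 9 of the ATF4 arm and 2 of the ER arm. The 2 comparisons shared 8 called members, 88.9% of the sham calls and 72.7% of the SNI calls, beside 69.6% and 71.9% over all features.

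**Figure D2:**
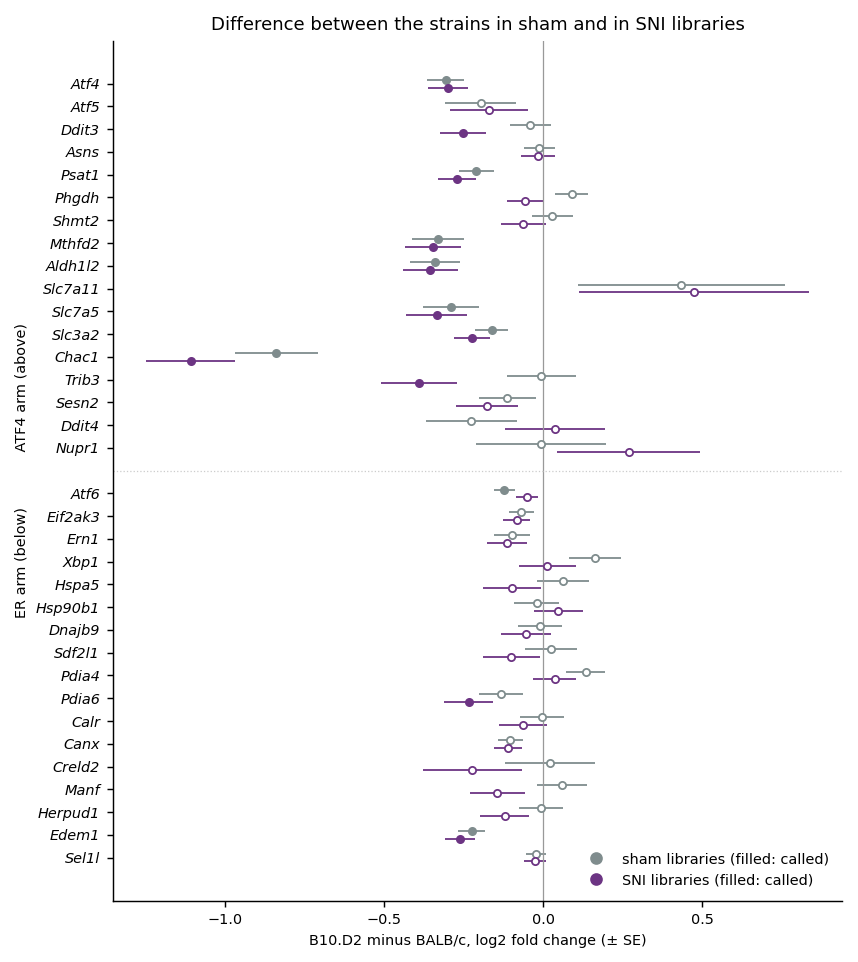
Log2 difference (points, with SE as bars) of B10.D2 minus BALB/c for each of the 34 genes, in sham libraries (grey) and in SNI libraries (purple), with ATF4 arm genes above the dotted line and ER arm genes below it. Filled points are called at an adjusted p under 0.05, 9 in sham and 11 in SNI, and every filled point lies left of 0.

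Chac1 differed most. It ranged from 4.68 to 7.25 CPM in BALB/c sham libraries (median 5.47) and was 2.47, 3.16, 3.25, 3.59 and 3.71 CPM in B10.D2 sham libraries. After SNI it was 6.48, 6.49, 7.50 and 8.92 CPM in BALB/c and 2.81, 3.04, 3.39, 3.71 and 3.84 CPM in B10.D2. The strains did not overlap in either surgery. In sham ganglia B10.D2 had 1.79-fold less Chac1 mRNA (log2 difference -0.84, SE 0.13, adjusted p = 4.89e-05) and in SNI ganglia 2.16-fold less (-1.11, SE 0.14, adjusted p = 4.06e-06). Both calls held in all 20 fits without 1 library. Of the 7 ATF4 arm genes lower in B10.D2 sham ganglia, 5 had a promoter entry, and Chac1 was the only one of these with a CARE match.

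Atf4 itself was lower in B10.D2. The library values given for injury show 4 of 5 B10.D2 sham libraries below all BALB/c sham libraries, and all 5 B10.D2 SNI libraries below all BALB/c SNI libraries. The log2 difference was -0.31 in sham (SE 0.0575, adjusted p = 0.000398) and -0.30 in SNI ganglia (SE 0.0632, adjusted p = 0.00139). Mthfd2, a mitochondrial folate enzyme, ranged from 23.2 to 34.4 CPM in BALB/c sham libraries (median 25.7) and was 20.5, 20.7, 20.9, 22.4 and 23.0 CPM in B10.D2 sham libraries. The groups did not overlap, and the log2 difference was -0.33 (SE 0.0811, adjusted p = 0.00471) in sham and -0.35 (SE 0.089, adjusted p = 0.00726) in SNI ganglia. Aldh1l2 differed by -0.34 and -0.35 and Psat1 by -0.21 and -0.27 on the log2 scale in sham and SNI ganglia.

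The transporter subunits Slc7a5 and Slc3a2, which together form the large neutral amino acid exchanger LAT1, were lower together. Slc7a5 was 33.1 to 39.0 CPM in BALB/c sham libraries (median 35.8) and 26.8, 27.4, 28.2, 32.3 and 34.4 CPM in B10.D2 sham libraries. Slc3a2 was 77.1 to 89.3 CPM in BALB/c sham libraries (median 81.9) and 70.4, 71.4, 73.1, 76.1 and 81.3 CPM in B10.D2 sham libraries. For each gene 4 of 5 B10.D2 libraries lay below every BALB/c library. The log2 differences in sham ganglia were -0.29 for Slc7a5 (SE 0.0874, adjusted p = 0.0207) and -0.16 for Slc3a2 (SE 0.0513, adjusted p = 0.0271), called in 17 and 15 of the 20 fits without 1 library. In SNI ganglia they were -0.33 and -0.22. Slc7a11, which pairs with the same Slc3a2 chain, was 0.43 in the other direction with an SE of 0.325 and was not called.

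Ddit3 and Trib3 were called between the strains in SNI ganglia and not in sham ganglia, with log2 differences of -0.25 (SE 0.072, adjusted p = 0.0158) and -0.39 (SE 0.12, adjusted p = 0.0237) in SNI and -0.04 and -0.005 in sham. Ddit3 was 20.56, 21.98, 22.66 and 25.84 CPM in BALB/c SNI and 17.89, 18.01, 18.18, 20.04 and 20.68 CPM in B10.D2 SNI libraries, with an overlap of 1 library on each side. The test of that change is the interaction term given above, which did not pass for either gene. Asns and Phgdh, both ATF4 targets, had log2 differences of -0.01 and 0.09 in sham and -0.02 and -0.06 in SNI ganglia and were not called.

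**Figure D3:**
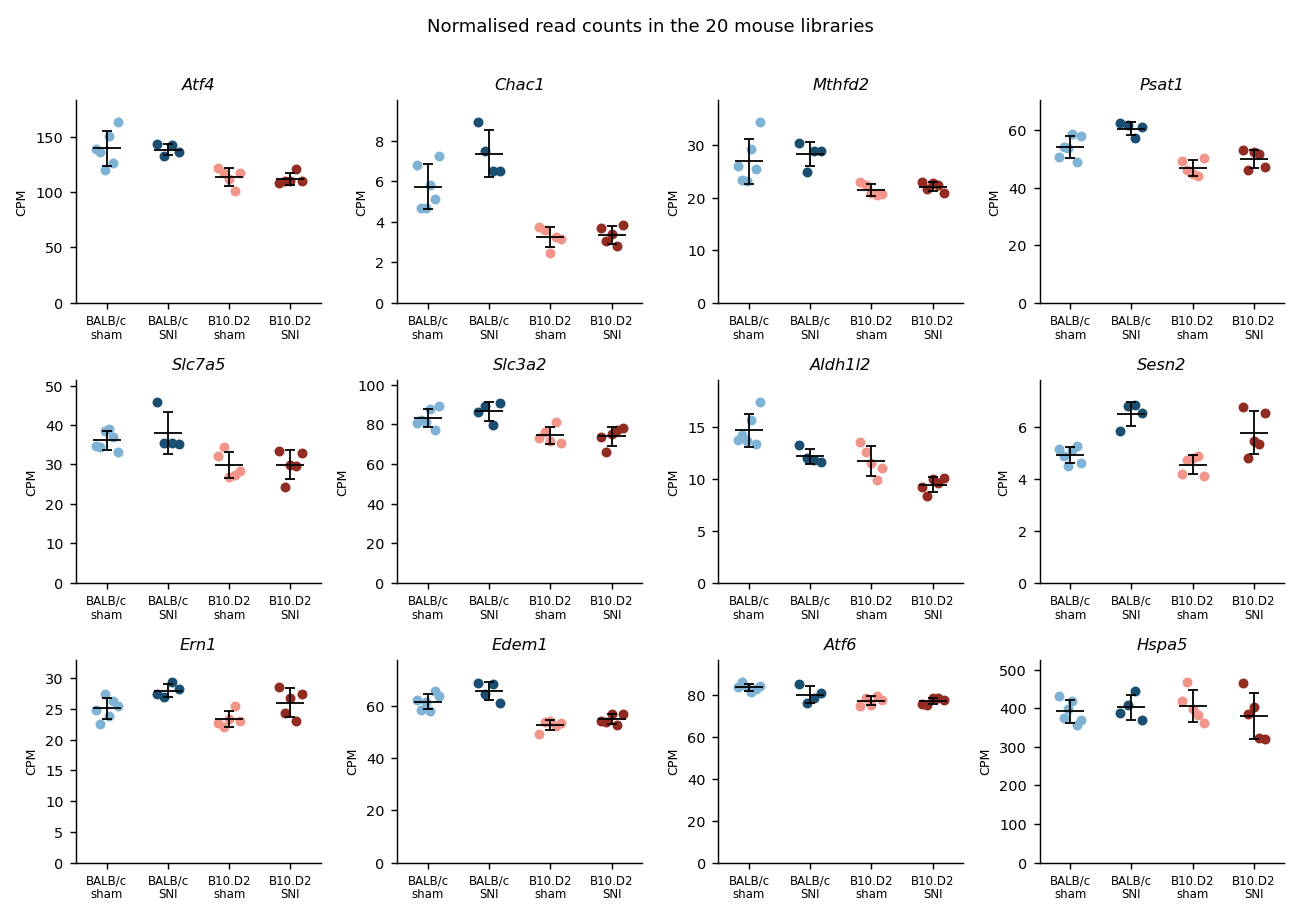
CPM of 12 members in each of the 20 mouse libraries (points), with the mean and SD of each group (bars) and an axis from 0. The B10.D2 libraries lie lower for Chac1, Atf4 and Mthfd2, the SNI libraries higher for Sesn2 and lower for Aldh1l2, and the groups overlap for Hspa5.

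On the ER arm the strain difference was called for Edem1, a mannosidase-like factor that routes misfolded glycoproteins to degradation, and Atf6. Edem1 was 58.1 to 65.6 CPM in BALB/c sham libraries (median 61.8) and 49.2, 52.5, 53.5, 53.7 and 54.3 CPM in B10.D2 sham libraries. After SNI it was 61.3, 64.6, 68.5 and 68.6 CPM in BALB/c and 52.77, 53.7, 54.37, 56.85 and 57.02 CPM in B10.D2. The strains did not overlap in either surgery, and the log2 difference was -0.22 in sham (SE 0.0427, adjusted p = 0.000474) and -0.26 in SNI ganglia (SE 0.047, adjusted p = 0.000298). Atf6 was 81.45 to 86.58 CPM in BALB/c sham libraries (median 83.92) and 74.72, 75.48, 77.97, 78.88 and 79.67 CPM in B10.D2 sham libraries, with no overlap, and differed by -0.12 in sham (SE 0.0323, adjusted p = 0.00876) and by -0.05 in SNI ganglia (adjusted p = 0.362). Among the 10 chaperones and foldases, edgeR called 0 in sham ganglia (2 at an unadjusted p under 0.05, and 1 called by DESeq2, Canx), and 1 in SNI ganglia, Pdia6 (-0.23, SE 0.0762, adjusted p = 0.032). Pdia6 was 146.9, 147.7, 147.7 and 171.5 CPM in BALB/c SNI and 109.9, 114.2, 134.9, 143.3 and 156.6 CPM in B10.D2 SNI libraries, of which 1 lay within the BALB/c range. Hspa5 differed by 0.06 in sham and -0.10 in SNI ganglia and was not called in either.

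Other genes of the pathway were taken from lists of known ATF4 arm genes and ER components. The ATF4 arm list holds targets of ATF4 and also genes upstream of it, among them Eif2ak2, Eif2ak4 and Eif2s1. Of 38 further ATF4 arm genes tested, 15 were called in sham ganglia (39.5%, beside 21.6% of all features), 11 of them lower in B10.D2, and 17 in SNI ganglia (44.7%, beside 20.9%), 15 of them lower. The lower genes in sham included Psph, the phosphatase of serine synthesis (-0.39), and Slc7a1, an arginine transporter (-0.42), and the higher genes included Slc7a3, a related transporter (0.78). Of the 12 cytosolic aminoacyl-tRNA synthetases on this list, 6 were lower and 1 higher in B10.D2 sham ganglia, and 7 were lower and 0 higher in SNI ganglia, 58.3% called in each. In SNI ganglia Stc2, a secreted glycoprotein (-1.78), and Cth, which makes cysteine (-1.14), were also lower. Of 34 further ER arm genes, 2 were called between strains in sham (5.88%) and 4 in SNI ganglia (11.8%), shares below those of all features. The median log2 difference over the 38 ATF4 arm genes was -0.06 in sham and -0.12 in SNI ganglia, and over the 34 ER arm genes -0.0044 and -0.03. In sham ganglia the marker sums of the strains overlapped for sensory neurons, satellite glia, macrophages, plasma cells, fibroblasts and endothelium. Single markers of these lists were called all the same, among them Isl1 (0.47) of sensory neurons and Adgre1 (0.70) of macrophages higher in B10.D2, and Kcnj10 (-1.22) of satellite glia and Kdr (-0.41) of endothelium lower. In SNI ganglia the sums did not overlap for plasma cells (44.5 to 58.2 CPM in B10.D2, 63.7 to 72.4 CPM in BALB/c, with Sdc1 alone called, at -0.40), endothelium (83.0 to 103 and 105 to 119 CPM) and the 6 axon injury markers (243 to 436 and 522 to 672 CPM), and the part of the markers in the strain differences was not tested.

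After SNI fewer of the further ATF4 arm genes were called. Of the 38 ATF4 arm genes, 5 were called in BALB/c (Atf3, Cebpg and Slc7a3 rising, Vegfa and Got1 falling), 13.2% beside 9.69% of all features, and 1 in B10.D2 (Atf3), 2.63% beside 4.58%. Averaged over strains 6 were called (15.8%, beside 16.5%), with Nars falling in addition to the 5. Atf3, a partner of ATF4 and also a marker of axotomised neurons, rose by 3.24 on the log2 scale in BALB/c and 2.69 in B10.D2. Of the 34 ER arm genes, edgeR called 0 in each strain, with 6 and 1 at an unadjusted p under 0.05, and DESeq2 called 0 in each. Averaged over strains 2 of the 34 were called (5.88%), Mbtps1 rising and Ube2j1 falling.

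Sex was a term of the mouse fit and was read out for the members after seeing the data. For males against females over both strains, edgeR called 0 of 34 members (beside 0.243% of all features), with 3 at an unadjusted p under 0.05 (Atf4, Creld2 and Ddit3), and DESeq2 called 0. Atf4 was 0.11 higher in males on the log2 scale (SE 0.0427, adjusted p = 0.317) and Creld2 -0.27 (SE 0.107, adjusted p = 0.317).

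In rat, 6 of the 24 members tested were called after SNT, Slc7a11, Atf5 and Eif2ak3 rising and Ddit3, Phgdh and Asns falling. That share (25.0%) was below the 27.4% of all features tested, so it is not a result about the members as a group. Of the 14 ATF4 arm genes tested 5 were called, and of the 10 ER arm genes 1. The median log2 fold change was 0.13 over the 24 members, beside 0.0027 over all features. Without sham library 4 and SNT library 1, 13 of 24 were called (54.2%, beside 43.9% of all features in that fit), 7 higher and 6 lower, including these 6. Leaving out 1 library at a time gave between 1 and 11 calls, fewest (1) without sham library 3 or SNT library 2 and most without SNT library 1 (11) or sham library 4 (10).

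Slc7a11 had the largest rise of the members called with all 8 libraries. It was 10.4, 8.66, 7.91 and 9.84 CPM in sham libraries 1 to 4 and 25.6, 16.2, 24.2 and 13.9 CPM in SNT libraries 1 to 4. All SNT libraries lay above all sham libraries. The rise was 2.17-fold (log2 fold change 1.121, SE 0.212, adjusted p = 0.0114), called in all 8 fits without 1 library, and was 1.03 without the 2 libraries between the groups (adjusted p = 0.0047), less than the rise of Aldh1l2 there. Atf5, a factor related to ATF4 and translated under the same control, was 93.8, 92.4, 89.8 and 90.2 CPM in sham and 118, 126, 104 and 121 CPM in SNT libraries. The groups did not overlap, and the log2 fold change was 0.36 (SE 0.0892, adjusted p = 0.019), called in 6 of the 8 fits, and 0.37 without the 2 libraries (adjusted p = 0.022). Eif2ak3 was 105, 118, 111 and 129 CPM in sham and 139, 152, 131 and 157 CPM in SNT libraries. These also did not overlap, with a log2 fold change of 0.32 (SE 0.102, adjusted p = 0.0418), called in 2 of the 8 fits, and 0.41 without the 2 libraries (adjusted p = 0.0147).

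The 3 members that fell in rat were the factor Ddit3 and the enzymes Asns and Phgdh. Ddit3 was 42.8, 42.2, 39.6 and 36.2 CPM in sham and 35.5, 26.5, 25.8 and 29.5 CPM in SNT libraries. No SNT library reached the sham range, and Ddit3 fell by 0.45 on the log2 scale (SE 0.125, adjusted p = 0.0259). Asns was 61.8, 77.2, 72.5 and 58.6 CPM in sham and 58.5, 43.7, 40.8 and 55.1 CPM in SNT libraries. The groups lay side by side without overlap, and Asns fell by 0.45 (SE 0.144, adjusted p = 0.0434). Phgdh was 227, 244, 246 and 200 CPM in sham and 203, 140, 145 and 166 CPM in SNT libraries, with 1 SNT library above the lowest sham library, and fell by 0.49 (SE 0.135, adjusted p = 0.0269). Each of these 3 calls held in 2 of the 8 fits without 1 library, those without sham library 4 and without SNT library 1. With both left out, which widens the differences by construction, the log2 fold changes were -0.59, -0.58 and -0.65.

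**Figure D4:**
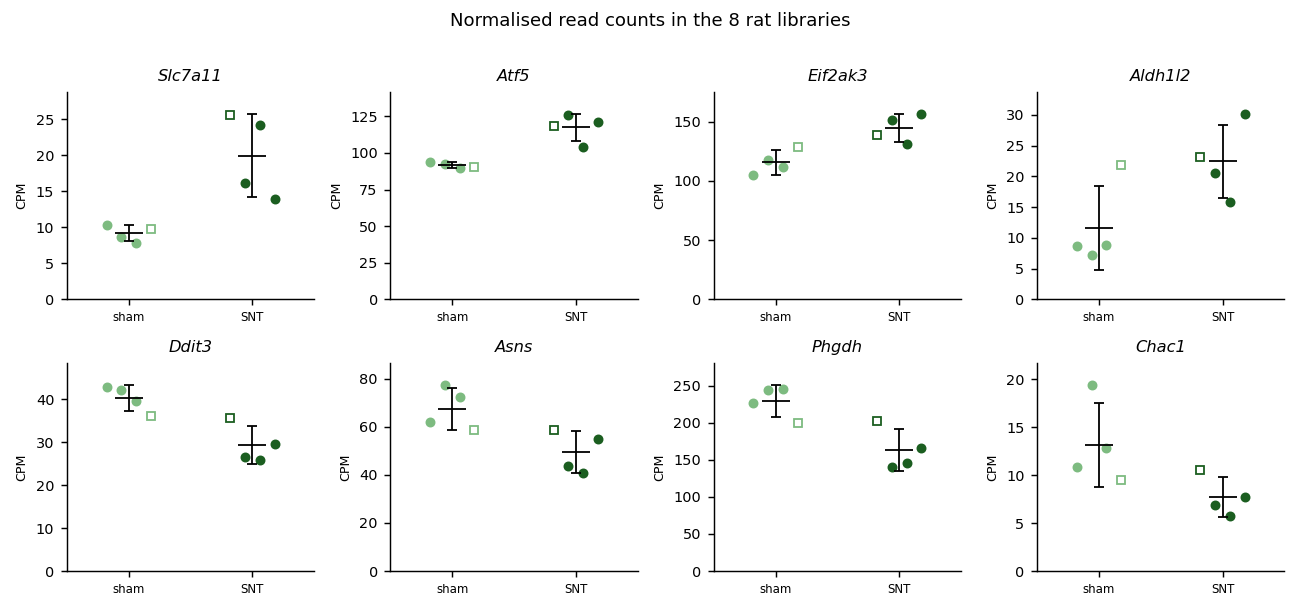
CPM of 8 members in the 4 sham and 4 SNT rat libraries (points), with the mean and SD of each group (bars) and an axis from 0. Open squares are sham library 4 and SNT library 1, which lie between the groups on the first principal component. Slc7a11, Atf5 and Eif2ak3 are higher and Ddit3 and Asns lower in every SNT library, and for Aldh1l2 sham library 4 lies among the SNT libraries.

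Some members missed the threshold with all 8 libraries and passed it without the 2 between the groups. Aldh1l2 was 8.619, 7.198, 8.904 and 21.82 CPM in sham and 23.1, 20.5, 15.9 and 30.2 CPM in SNT libraries. Sham library 4 alone lay within the SNT range. The log2 fold change was 0.94 (SE 0.345, adjusted p = 0.0672), and 1.45 without the 2 libraries (adjusted p = 0.000991). Chac1 had -0.77 (adjusted p = 0.0501) with all libraries and -1.07 without the 2 (adjusted p = 0.00479). Edem1 had 0.33 (adjusted p = 0.0532) and 0.46 (adjusted p = 0.00752), and Trib3 0.61 (adjusted p = 0.062) and 0.88 (adjusted p = 0.0071). Sesn2, which rose in mouse, had 0.30 (SE 0.134, adjusted p = 0.117) in rat with all libraries and 0.43 (adjusted p = 0.0398) without the 2. Psat1 had -0.26 (adjusted p = 0.0677) and -0.31 (adjusted p = 0.039). For Aldh1l2 the mouse estimates were -0.27 (BALB/c) and -0.28 (B10.D2), and for Psat1 the estimate averaged over the mouse strains was 0.13. These differences between species were not tested.

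Atf4 mRNA and the chaperones did not pass in rat with all 8 libraries. Atf4 was 301, 350, 290 and 311 CPM in sham and 323, 309, 286 and 316 CPM in SNT libraries, which overlapped, and its log2 fold change was -0.02 (SE 0.102, adjusted p = 0.893). Of the 7 chaperones and foldases tested, edgeR called 0, with 0 at an unadjusted p under 0.05, and DESeq2 called 0. Without the 2 libraries between the groups Dnajb9 was called lower (-0.46, adjusted p = 0.0115). Hspa5 was 738, 819, 794 and 869 CPM in sham and 765, 745, 811 and 674 CPM in SNT libraries. The groups overlapped, with a log2 fold change of -0.10 (SE 0.112, adjusted p = 0.507). Of the further pathway genes, 4 of 22 tested were called on the ATF4 arm (18.2%; Slc1a5, Ppp1r15a and Vldlr rising, Vegfa falling) and 4 of 16 on the ER arm (25%; Creb3l2, Creb3l1 and Os9 rising, Dnajc10 falling), both shares below the 27.4% of all features.

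Marker sums of other cells differed between the rat groups beside these values. The 2 macrophage markers counted of 6 (Cx3cr1 and Adgre1) summed to 65.2, 41.7, 41.4 and 102 CPM in sham libraries 1 to 4 and 102 to 126 CPM after SNT. The 3 fibroblast markers counted of 4 summed to 882 to 2006 CPM in sham and 1857 to 2708 CPM after SNT. Sdc1, the 1 plasma cell marker counted of 4, was 19.7 to 63.2 CPM in sham and 63.6 to 112 CPM after SNT. Cd68, Aif1, Csf1r, Cd14, Col1a1, Mzb1, Tnfrsf17 and the endothelial markers Cdh5, Kdr and Cldn5 were listed at 0, and Jchain and Pecam1 were not analysed in rat. The part of these cells in the rat changes was not tested.

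Within groups, the ER chaperones varied together from animal to animal in mouse. Correlations were taken over the 20 mouse libraries on log2(CPM + 0.5), after the means of group and sex were removed, with 100000 permutations and adjustment over 49 relations. Hspa5 correlated with Pdia6, a disulfide isomerase (Pearson's r = 0.91, permutation p = 1e-05, adjusted 8e-05, and Spearman's rho = 0.917, permutation p = 1e-05, adjusted 0.0002). Here 1e-05 is the smallest p that the permutations can give. With Xbp1, Creld2, Manf, Pdia4, Calr, Sdf2l1, Herpud1 and Hsp90b1, r ran from 0.897 down to 0.546, with permutation p from 1e-05 to 0.012 and adjusted p from 8e-05 to 0.0491. Their rho ran from 0.564 to 0.847, with permutation p from 1e-05 to 0.0109. Without the 2 libraries farthest from the median of Hspa5, r was 0.857 for Pdia6 and 0.397 to 0.812 for these 8. The permutations shuffled the 20 residuals freely and did not allow for the group and sex means removed, so the p-values are somewhat too small. A pass near the threshold, as for Hsp90b1 (r = 0.546, adjusted permutation p = 0.0491), is therefore uncertain.

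**Figure D5:**
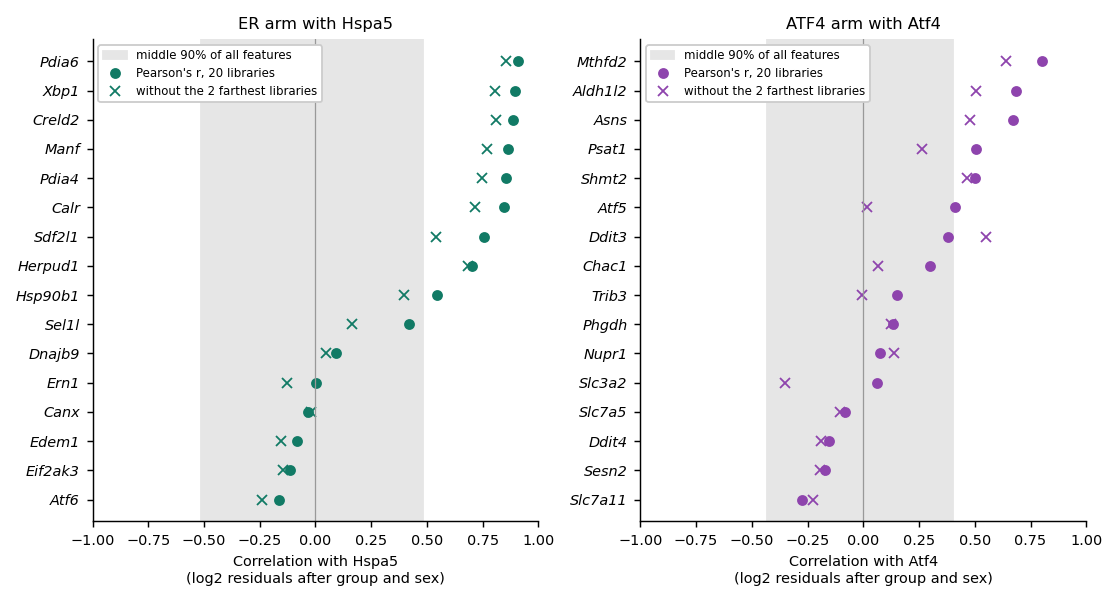
Pearson's r, over the 20 mouse libraries after removal of group and sex means, of each ER arm gene with Hspa5 (left) and each ATF4 arm gene with Atf4 (right). Dots use all libraries and crosses leave out the 2 farthest from the median of the reference gene, and the grey band spans the middle 90% of all other features tested. In the left panel 9 genes lie right of the band.

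The other 7 ER arm genes, which include all 3 sensors, Canx, Dnajb9, Edem1 and Sel1l, had r with Hspa5 from -0.164 to 0.42 and did not pass. The middle 90% of all features lay between -0.514 and 0.481 for Hspa5. Of the 6 genes shown with an ER stress element, Pdia6, Creld2, Calr and Hsp90b1 were among those that correlated with Hspa5, whereas Canx (r = -0.0356) was not. On the other arm, Atf4 correlated with Mthfd2 (r = 0.801, adjusted permutation p = 0.00021), Aldh1l2 (r = 0.685, adjusted permutation p = 0.00387) and Asns (r = 0.673, adjusted permutation p = 0.00561). Their rho was 0.711, 0.612 and 0.663, with adjusted permutation p of 0.00434, 0.0236 and 0.0107, and r without the 2 farthest libraries was 0.64, 0.504 and 0.478. The other 13 ATF4 arm genes, Chac1 and Trib3 among them, had r from -0.277 to 0.505 and did not pass after adjustment.

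The references of the 2 arms were not found to move together, with r = 0.241 between Hspa5 and Atf4 (permutation p = 0.307, adjusted 0.557, rho = 0.383, permutation p = 0.0959). Cell makeup can differ between libraries of one group. Summed fibroblast markers correlated with Hspa5 at r = 0.542 (permutation p = 0.0135, adjusted 0.0511, rho = 0.475, permutation p = 0.0354) and endothelial markers at r = 0.527 (permutation p = 0.0165, adjusted 0.0576, rho = 0.508, permutation p = 0.0229). Plasma cell markers had r = -0.103 with Hspa5. The part of these cells in the co-variation was not tested.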

How the data were processed

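Gene counts of DRG RNA-seq were analysed in 20 mouse and 8 rat libraries. The count tables were deposited by the authors as raw read counts per gene for Ensembl genes and their predicted long noncoding RNAs. The submitters' processing notes name STAR, SAMtools, HTSeq and DESeq2 and the builds GRCm38/mm10 and Rnor_6.0/rn6, and give no versions. The libraries were stranded (dUTP) and paired end. The deposited tables also hold the authors' fold changes and p-values, which were not used. A B10.D2 sham and a BALB/c SNI sample without a count column were not analysed here.

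Groups followed the labels' strain, sex and condition. edgeR 4.0.16 in R 4.3.3 was used with TMM scaling, filterByExpr and the quasi-likelihood F test, with sex + strain × condition in mouse (1 fit, sharing the spread) and condition in rat. p-values were adjusted by Benjamini-Hochberg over all features tested, and the SE was derived from the F statistic. CPM used TMM-scaled totals. Correlations used scipy 1.17.1. Detection limits cover counting error only. On simulated counts, 94.0% of 200 genes changed 2-fold were recovered in the BALB/c comparison over 24685 features and 56.0% in the rat comparison over 13690 features, with 11 and 8 unchanged genes called. These shares hold for 200 changed genes and are not the sensitivity of the real comparisons, which called more features. Alternatives were DESeq2 1.42.0, RLE size factors, no filter on low counts, no sex term, strains fitted alone, leaving out libraries and a replicate block.

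Mouse replicates are single animals. Rat samples are pools of 3 animals. The members, gene lists and tests were chosen with earlier results of these data known. All 34 members enter the counts of calls in mouse and 24 those in rat, but not every member has its own fold change here. Library values are given for Atf4, Hspa5 and, in at least 1 comparison each, the members called in mouse or in rat with all libraries. Promoter sequences are RefSeq's on GRCm38.p6.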

Additional observations from a re-analysis of the deposited data

Results flagged for a closer look

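Of 184 group values of members with 4 to 10 libraries, 6 had 1 library apart from the rest by Dixon's criterion, which chance gives in about 1 of 20 groups. Atf4 was 121 CPM in B10.D2 SNI library 89, with the others at 107.9 to 110.1 CPM. Slc7a5 was 45.88 CPM in BALB/c SNI library 49, with the others at 35.14 to 35.53 CPM. Pdia6 was 171.5 CPM in BALB/c SNI library 65, with the others at 146.9 to 147.7 CPM. In rat, Psat1 was 41.6 CPM in SNT library 1, with the others at 35.13 to 35.67 CPM. Aldh1l2 was 21.82 CPM in rat sham library 4, with the others at 7.198 to 8.904 CPM, and Edem1 was 100.7 CPM in the same library, with the others at 77.08 to 80.46 CPM. The 3 rat values lie in the libraries that stood between the groups on the first principal component.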

How the results depend on the processing

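No called member's change reversed under an alternative. Estimates of members not called could change sign (Slc7a11 in BALB/c was -0.22, and -0.43 to 0.12 without 1 library). Over all alternatives, members called kept their call in 384 values and lost it in 81, and members not called stayed so in 3957 and became called in 38. In BALB/c, 2 members were called, and 1 without the filter, without the sex term or with the strain fitted alone (1 to 2 without 1 library). In B10.D2, 1 member was called, 0 without the filter or with the strain fitted alone, and 2 without the sex term or with DESeq2 (0 to 1 without 1 library). Averaged over strains 3 to 5 were called without 1 library, for the interaction 0, and between strains in sham 7 to 11. In rat 6 were called, 8 with RLE size factors, 4 without the filter, 9 with DESeq2 (adding Aldh1l2, Chac1 and Edem1), 13 without sham library 4 and SNT library 1, and 1 to 11 without 1 library. The causes were not tested. Numbers in the rat titles are shared by 1 sham and 1 SNT library each. Same-numbered libraries did not deviate together (r from -0.226 to 0.0533), so the numbers were not taken as a pairing, and the replicate block gave 4 calls. Mouse libraries share no numbers. With 4 libraries a group and the spread of rat libraries, 56% of simulated 2-fold changes were recovered. Only 200 of 13690 features were changed there, whereas the real rat comparison called 3753. The p-value cut-off set by the adjustment therefore differs, and the 56% is not the sensitivity of the real comparison. Small changes in rat can still go uncalled.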

Other observations

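Some predicted long noncoding RNAs of the deposited table overlap members or lie near them. They were read out after SNI in each strain and averaged over strains, and between strains in sham. Of those tested, only LncRNA559 and LncRNA2083 were called, each in the comparison given below. Of all features, 16.5% were called after SNI averaged over strains and 21.6% between strains in sham. LncRNA559 lies opposite Phgdh within the gene and was 1.81 higher in B10.D2 than in BALB/c sham ganglia on the log2 scale (SE 0.388, adjusted p = 0.00151), at 0.0284 to 1.06 CPM over all mouse libraries, the lowest of them under the limit of detection, while Phgdh itself differed by 0.09 and was not called. LncRNA2083, on the strand of Aldh1l2 and 9733 bases from it, fell by 0.63 on the log2 scale after SNI averaged over strains (SE 0.198, adjusted p = 0.0318), at 0.0837 to 0.428 CPM, levels close to the limit of detection. Aldh1l2 fell in the same comparison, and a link between the 2 was not tested.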
